A study of Mus musculus with 26 samples.

Results

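Lars2 is the nuclear gene of the mitochondrial leucyl-tRNA synthetase, and it is described here across polysome-associated and total mRNA of macrophages from mouse mammary tumours. It is 1 of 19549 gene rows counted in 26 libraries, and it was picked from the measured values themselves, because it took more counts than any other gene in most of the polysome libraries. The rule of choice also reads its share of counts by batch and tumour weight. Its shares by RNA source, batch and tumour size are therefore given as a description, without a test, and p-values for size come from fits over all genes, which read the same libraries and are not independent of the choice.

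PyMT tumour cells, from the polyoma middle T mammary cancer model, had been injected into a mammary gland of female FVB mice 5 to 7 weeks old, and CD11b+F4/80+Ly6G- macrophages were sorted from 13 excised tumours of different weights. From each tumour the macrophages gave a polysome library, made from mRNA bound to at least 3 ribosomes, and a total mRNA library, made from about 10% of the sorted cells, both with SmartSeq2, a full-length cDNA method for small amounts of RNA. The labels name no treatment and no altered allele of the mice. The 5 large tumours weighed 1504 to 2245 mg and the 8 small tumours 467 to 841.8 mg; the split at 1000 mg was made here, where no weight lay. Experimental batch 2 held large replicates 3 to 5 and small replicates 6 to 8, and experimental batch 1 held large replicates 1 and 2 and small replicates 1 to 5. The labels do not say whether each tumour came from a mouse of its own, so the tests measure the spread between tumours. Both libraries of a tumour come from 1 sorted cell population.

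Polysome libraries held 7034173 to 28257436 counts and total mRNA libraries 18018519 to 55609113. All 11 macrophage marker genes on the list had counts in every library, with a summed share of 0.525% to 4.68% of polysome counts and 1.56% to 6.29% of total mRNA counts. Small replicate 7 had the lowest macrophage share and the highest summed share of epithelial and fibroblast markers in both kinds of library: the 6 epithelial markers took 0.123% of its polysome counts and 0.476% of its total mRNA counts, against highest values of 0.0278% and 0.048% among the tumours other than it, small replicate 6 and large replicate 3.

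Mitochondria make a few subunits of the respiratory chain on ribosomes of their own. The transfer RNAs used there are charged by a separate set of synthetases that are encoded in the nucleus, translated in the cytosol and imported, and the Lars2 protein attaches leucine to the mitochondrial leucine tRNAs. A transcript that carries several cytosolic ribosomes sediments in the heavy part of a sucrose gradient. Polysome counts are therefore meant to measure mRNA that was loaded with ribosomes, and not the amount of protein.

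In the GENCODE M21 annotation of GRCm38, the build the files use under its name mm10, Lars2 lies on the plus strand of chromosome 9 from 123366927 to 123462666 (ENSMUSG00000035202.8), and 0 other annotated genes overlap it on either strand. Its main transcript has 21 exons and 3894 bases, of which 2706 are coding and the last 989, all in the last exon (123461499 to 123462664), follow the coding part. The transcript was compared with the annotated transcripts of every other gene, because reads from a near-identical copy can be counted for the wrong gene. Matches of at least 50 bases were found with 4 other genes, each of them in the part after the coding sequence, and 2 of the 4 reached an identity of 95%. Gm15564, an antisense RNA gene on chromosome 16, matched 98.6% of 72 bases (chr9:123462048-123462119) on the same strand, and AA474408, on chromosome 7, matched 96.0% of 50 bases (chr9:123461933-123461982). From the longest identical run with Gm15564, 52 bases, the central 30 (chr9:123462059-123462088, plus strand, GENCODE M21 transcript sequence, 5′ to 3′) are shown. A read that lies wholly within the run matches both genes equally well, while a read that reaches past it may not.
Lars2: gcgttggattgttcacccactaatagggaa
Neither Gm15564 nor AA474408 has a row in the count tables. The list of ribosomal RNA genes had 0 rows and the list of small structured RNAs had 0 rows there. No ribosomal RNA sequence was used here, so whether these bases also occur in ribosomal RNA, which polysome fractions carry with their ribosomes, was not tested. How reads with several equally good places were counted is not given in the sources used here. Every Lars2 value below counts reads from the whole gene and is uncertain to the extent that such reads contribute.

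Lars2 took between 2.17% and 25.9% of all counts in the 13 polysome libraries, with a median of 10.3%. In batch 2 its share was 6.01% in large replicate 3, 2.17% in large replicate 4 and 5.47% in large replicate 5, against 10.3% in small replicate 6, 6.44% in small replicate 7 and 7.18% in small replicate 8. In batch 1 it was 10.5% in large replicate 1 and 4.80% in large replicate 2, against 25.9%, 18.5%, 19.4%, 18.98% and 10.3% in small replicates 1 to 5. The highest shares thus stood in small tumours of batch 1 and the lowest in a large tumour of batch 2, and the batches overlapped. Lars2 ranked first by count in every polysome library except those of large replicates 2 and 4, where Apoe, the apolipoprotein E gene, took more, with 6.75% and 3.06% of counts. Averaged over the 13 polysome libraries, Lars2 took 11.2% ± 7.18, Apoe 2.47% ± 1.71 and Actb, the beta-actin gene, 2.16% ± 0.638 (SD, n = 13). A share this large lowers the share of every other gene, and leaving the Lars2 row out would raise those shares 1.02-fold to 1.35-fold, depending on the polysome library.

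**Figure D1:**
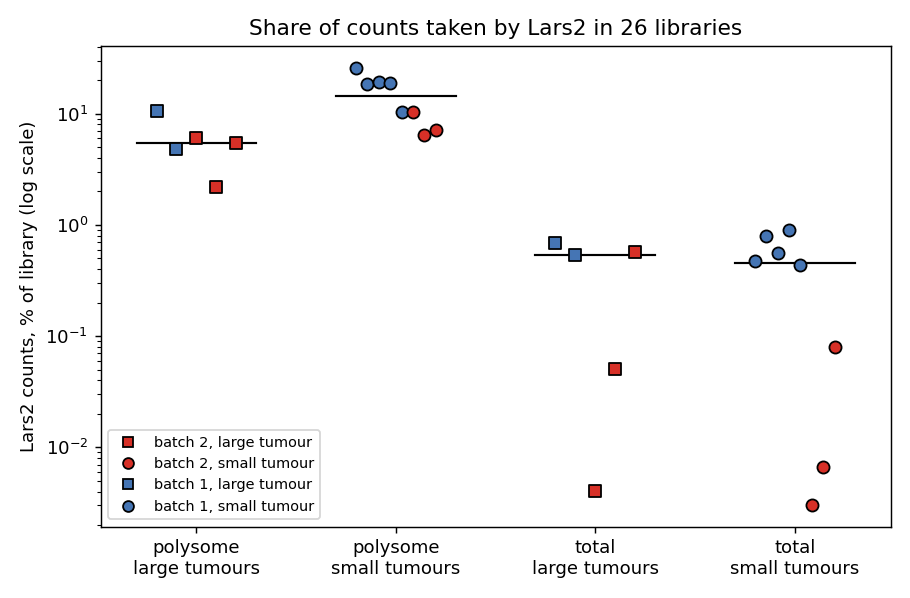
Share of each library's counts taken by Lars2, in percent on a log axis, for polysome and total mRNA of large and small tumours (red, batch 2; blue, batch 1; squares, large; circles, small; bars, group medians). The polysome libraries lie between 2.17% and 25.9%, and the total mRNA libraries between 0.00304% and 0.902%, with 3 of them far below the rest.

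In total mRNA the share was smaller, with a median of 0.477%, and it varied more between libraries. In batch 2 it was 0.00406%, 0.0502% and 0.571% in large replicates 3 to 5, against 0.00304%, 0.00658% and 0.0792% in small replicates 6 to 8. In batch 1 it was 0.686% and 0.532% in large replicates 1 and 2, against 0.477%, 0.793%, 0.560%, 0.902% and 0.433% in small replicates 1 to 5. Large replicate 5 stood with the libraries of batch 1, and the other 5 libraries of batch 2 were all below the lowest of batch 1. The counts behind the lowest shares were 2020 in large replicate 3, 1471 in small replicate 6 and 2662 in small replicate 7, so counting error reached 4.36%, 5.11% and 3.80% of the value (the half-width of the 95% Wilson interval) and at most 1.29% in any other library, which covers counting error only. Depth did not run low in these 3 libraries, which held 49733409, 48340879 and 40437420 counts. By rank, Lars2 stood between place 5 and place 16 in the total mRNA libraries of batch 1, but at places 3220, 3969 and 2954 in large replicate 3 and small replicates 6 and 7. Apoe took the most counts in every total mRNA library, and averaged 5.65% ± 2.00, against 2.01% ± 0.899 for Lyz2, the lysozyme gene of macrophages, and 0.392% ± 0.324 for Lars2 (SD, n = 13).

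The spread of Lars2 over libraries was common for a gene in polysome mRNA and among the widest in total mRNA. On the log2 CPM scale, where CPM is a count scaled to library size after TMM normalisation, its SD was 1.11 over the 13 polysome libraries, and 22.5% of the 7592 genes that averaged 10 CPM or more there had a larger one. Over the 13 total mRNA libraries its SD was 2.99, and 9 of 7813 such genes had a larger one. Within the total mRNA of batch 2 the SD was 2.81 (n = 6) and 18 of 7813 genes exceeded it; within batch 1 it was 0.40 (n = 7), and 31.2% of 7538 genes exceeded it. The wide spread in total mRNA was measured in batch 2.

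Per length, Lars2 was also high in polysomes. With the longest protein-coding transcript of each gene as its length, Lars2 had 31075 ± 21259 CPM per kilobase in polysome mRNA, against 922 ± 759 in total mRNA (SD, n = 13). These levels placed it first in polysome mRNA and at place 51 in total mRNA among 18171 genes; by batch it was first in polysome mRNA of both, and in total mRNA at place 277 in batch 2 and place 29 in batch 1. Apoe, by the same measure, had 19289 ± 15594 CPM per kilobase in polysome mRNA, against 40626 ± 20105 in total mRNA (SD, n = 13). In polysome mRNA the spreads of the 2 genes overlap. With all annotated exons as the length, which for Lars2 includes retained introns and comes to 11089 bases, Lars2 was second to Apoe in polysome mRNA (place 7 in batch 2, place 1 in batch 1) and at place 141 in total mRNA (place 560 in batch 2, place 68 in batch 1).

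The polysome share exceeded the total mRNA share in 13 of 13 tumours. The ratio of the shares was 1481-fold, 43.3-fold and 9.58-fold in large replicates 3 to 5, and 3395-fold, 979-fold and 90.7-fold in small replicates 6 to 8. It was 15.3-fold and 9.03-fold in large replicates 1 and 2, and 54.2-fold, 23.3-fold, 34.5-fold, 21.0-fold and 23.9-fold in small replicates 1 to 5. The 3 tumours with ratios near or above 1000 were those with the low total mRNA libraries, while their polysome shares, 6.01% to 10.3%, lay within the range of the other 10. In the fit over all genes the log2 fold of Lars2 in polysome over total mRNA was 6.14 ± 0.47 (SE, n = 13 tumours), the highest of 12109 genes tested. Without large replicate 3 and small replicates 6 and 7 it was 4.96 ± 0.24, in batch 2 alone 7.64 ± 0.98 and in batch 1 alone 4.88 ± 0.25. Tumour by tumour, the Lars2 difference ranked between place 1 and place 12 among genes of at least 10 CPM in 11 tumours, and at places 54 and 21 in large replicates 2 and 5.

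**Figure D2:**
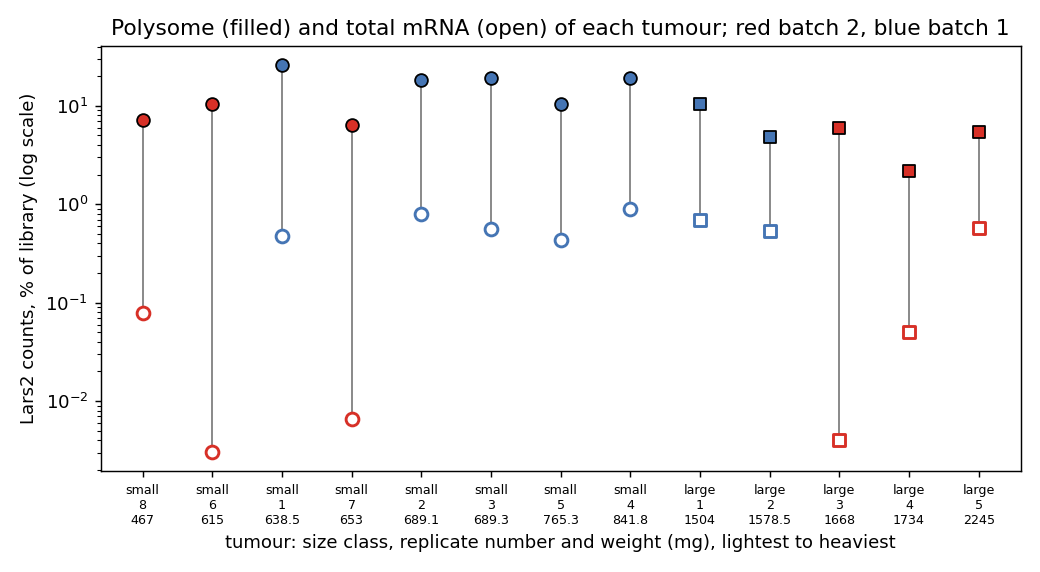
Lars2 share of counts in percent, on a log axis, for the polysome library (filled) and the total mRNA library (open) of each of 13 tumours, ordered by weight (red, batch 2; blue, batch 1; squares, large; circles, small). Each vertical line is the ratio of the shares, 9.03-fold at the least and 3395-fold at the most. Total mRNA shares vary 297-fold over the 13 tumours and polysome shares 11.9-fold; within batch 1 the open points vary 2.08-fold and the filled points 5.38-fold.

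In bulk libraries, fewer cells of a type and less RNA per cell cannot be told apart. The macrophage markers took 1.56% to 6.21% of counts in the 3 total mRNA libraries with little Lars2, against 3.07% to 6.29% in the other 10. Of the other marker lists in those 3 libraries, neutrophil genes summed to 0.00309% to 0.00597% of counts, against 0.00475% to 0.0195% in the other 10. Epithelial genes summed to 0.0102% to 0.476%, against 0.0058% to 0.048%, with the value above the range in small replicate 7, and fibroblast genes summed to 0.00324% to 0.307%, against 0.00835% to 0.234%. The 5 T cell genes with rows summed to 0.000149% to 0.00231%, against 6.17e-05% to 0.000239%, and B cell genes to 0.0018% to 0.00727%, against 0.000772% to 0.0039%. Endothelial genes lay within the range of the other libraries, and of the list of 5 erythroid genes 1 had a row. Pax5, a defining B cell gene, was at 0 in all 13 polysome libraries, and no other listed marker was. The part of these cell types in the Lars2 values was not tested.

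The comparison by tumour weight asks whether the polysome counts of the Lars2 row differ between macrophages of large and small tumours. Reads from near-identical sequences may contribute to that row, so its counts may not measure Lars2 mRNA on polysomes alone. In polysome mRNA the Lars2 share was 2.17% to 10.5% with a median of 5.47% in large tumours, against 6.44% to 25.9% with a median of 14.4% in small tumours. The groups overlapped over all 13 tumours. In batch 2, the highest large tumour, at 6.01%, lay below the lowest small tumour, at 6.44%; in batch 1, large replicate 1, at 10.5%, exceeded small replicate 5, at 10.3%. Within batches, the mean log2 share was lower in large tumours by a difference of -1.06, a ratio of 0.479. The difference was -0.91 in batch 2 and -1.33 in batch 1. The gene-wide fit did not call this difference, but the choice of Lars2 had already read its share by tumour weight. The p-values for size, here and below, are therefore not independent of that choice and only describe the fits. After TMM scaling, edgeR gave a log2 fold of -0.92 ± 0.46 (SE) for large over small tumours, with an unadjusted p = 0.0581 and an adjusted p = 0.415. In that comparison 0 of 10933 genes were called at an adjusted p below 0.05 (0%), and 1362 had an unadjusted p below 0.05. The batch difference of the size effect, batch 2 minus batch 1, was 0.69 ± 0.86 (SE, edgeR adjusted p = 0.93).

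**Figure D3:**
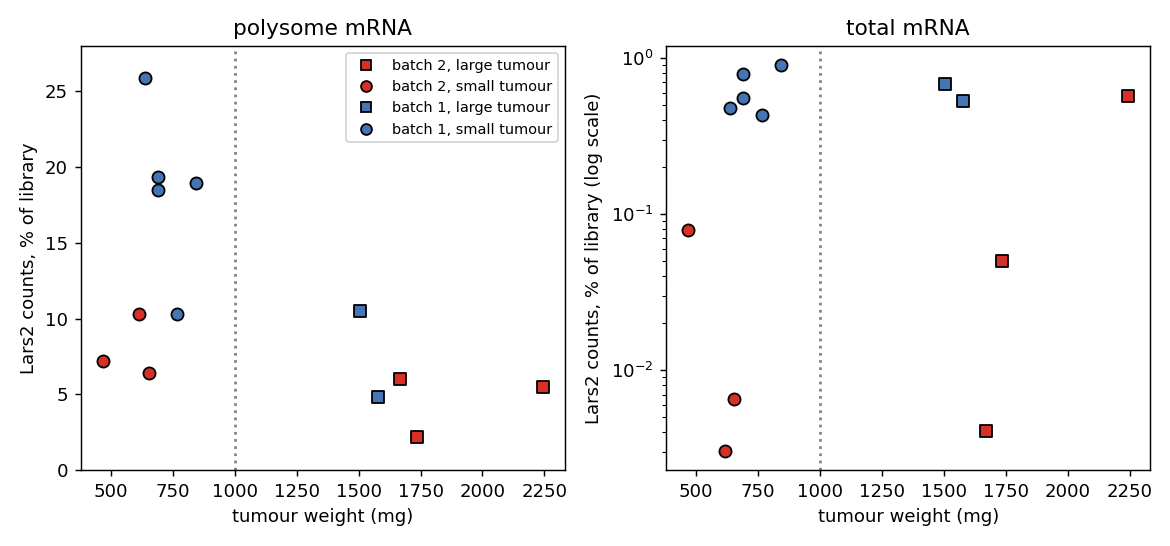
Lars2 share of counts against tumour weight in mg, for polysome mRNA (left, linear axis from 0) and total mRNA (right, log axis); the dotted line marks 1000 mg, the split between small and large (red, batch 2; blue, batch 1). Polysome shares in large tumours reach 10.5% at the most, while 4 small tumours of batch 1 lie between 18.5% and 25.9%; in total mRNA the low points are libraries of batch 2 on both sides of the line.

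In total mRNA the gene-wide fit did not call a size difference either. The share was 0.00406% to 0.686% with a median of 0.532% in large tumours, against 0.00304% to 0.902% with a median of 0.455% in small tumours. Within batches the difference of the mean log2 share was 1.00. The edgeR log2 fold was 1.23 ± 1.02 (SE, adjusted p = 0.881), with 0 of 11671 genes called (0%) and 538 at an unadjusted p below 0.05. That value rests on 1 library: without large replicate 5 it was -0.18 ± 0.77 (adjusted p = 0.999). The change of polysome association with size, that is the polysome-over-total fold in large minus that in small tumours, was -2.08 ± 0.87 on the log2 scale (SE, edgeR unadjusted p = 0.0247, adjusted p = 0.383), with 0 of 12109 genes called (0%) and 1385 at an unadjusted p below 0.05. It was -1.34 without large replicate 5 and -1.41 without large replicate 3 and small replicates 6 and 7, and the lowest adjusted p among the alternatives run was 0.205.

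The other mitochondrial synthetases had log2 folds of 1.73 at most in polysome over total mRNA. Of 18 listed genes, which were chosen with results of these data known, 17 had rows and all 17 were tested: 2 were higher and 8 lower in polysome than in total mRNA at an adjusted p below 0.05, where 23.3% of all 12109 genes were called higher and 35.2% lower. Their median log2 fold was -0.29, against -0.36 over all genes tested. Vars2, the mitochondrial valyl-tRNA synthetase, averaged 29.3 ± 21.0 CPM in polysome mRNA and 8.95 ± 6.38 CPM in total mRNA, and rose by 1.73 ± 0.27 on the log2 scale (SE, edgeR adjusted p = 7.03e-06), being higher in 11 of 13 tumours. Wars2, the tryptophanyl enzyme, was also called higher, with a log2 fold of 0.71 ± 0.26 (SE). Gars, the glycyl enzyme that serves the cytosol as well, averaged 38.8 ± 11.2 CPM in polysome mRNA and 106 ± 37.5 CPM in total mRNA (SD, n = 13) and had a log2 fold of -1.39 ± 0.19 (SE, edgeR adjusted p = 9.92e-07). Fars2, the phenylalanyl enzyme, and Hars2, the histidyl enzyme, had log2 folds of -1.27 and -2.95 and were called lower. Hars2 averaged only 5.52 ± 4.98 CPM in polysome mRNA (SD, n = 13). Among the 17, the threonyl enzyme Tars2 had the highest mean in polysome mRNA, 77.8 ± 54.9 CPM. In total mRNA Tars2 had 56.1 ± 25.1 CPM, and the highest mean there was that of Gars, 106 ± 37.5 CPM. Lars2 averaged 121006 ± 82784 CPM in polysome mRNA and 3590 ± 2956 CPM in total mRNA (SD, n = 13). Lars, the cytosolic leucyl-tRNA synthetase, had 29.5 ± 13.4 CPM in polysome mRNA and 65.3 ± 34.6 CPM in total mRNA, with a log2 fold of -1.01 ± 0.23 (SE, edgeR adjusted p = 0.000521).

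The other genes of mitochondrial translation were mostly lower in polysomes or not called. All 3 genes of the glutamyl-tRNA(Gln) amidotransferase, which makes the glutamine tRNA usable in mitochondria, were called lower, with log2 folds of -1.55 for Gatb, -2.07 for Qrsl1 and -0.72 for Gatc. Gatb and Qrsl1 averaged only 8.66 ± 5.34 and 3.22 ± 2.87 CPM in polysome mRNA (SD, n = 13). Of 12 measured genes of initiation, elongation, release and mRNA handling in mitochondria, 9 were called lower and 1 higher. The higher one was Tufm, the mitochondrial elongation factor Tu, at 174 ± 74.8 CPM in polysome mRNA and 77.6 ± 37.0 CPM in total mRNA (SD, n = 13), with a log2 fold of 1.2 ± 0.2 (SE). Among the 9 lower were Ptcd3, a protein of the small mitochondrial ribosomal subunit, at -1.73, and Lrpprc, which stabilises mitochondrial mRNAs, at -2.45. Mtrf1, a release factor, was another, at -3.46. In polysome mRNA Ptcd3, Lrpprc and Mtrf1 averaged only 6.55 ± 3.60, 5.49 ± 3.74 and 1.18 ± 1.13 CPM (SD, n = 13). Of 11 measured genes of mitochondrial tRNA processing and modification, 5 were called lower and 0 higher. They included Hsd17b10 and Trmt10c, subunits of the enzyme that cuts the tRNA 5′ end, at -1.23 and -2.86. The tRNA modification enzymes Mto1 and Trit1 were among them too, at -3.04 and -1.15. In polysome mRNA Trmt10c and Mto1 averaged only 1.87 ± 1.54 and 4.15 ± 3.06 CPM (SD, n = 13). The medians of the 3 lists were -1.55, -1.55 and -1.15. The shares called higher were below the 23.3% of all genes, and the shares called lower above 35.2%; no test of the lists against other genes was made. In batch 2 alone, 1 of 3, 4 of 12 and 2 of 11 genes of these lists were called lower and 0 higher. Of all 12081 genes tested in that fit, 1916 were called lower and 1690 higher.

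**Figure D4:**
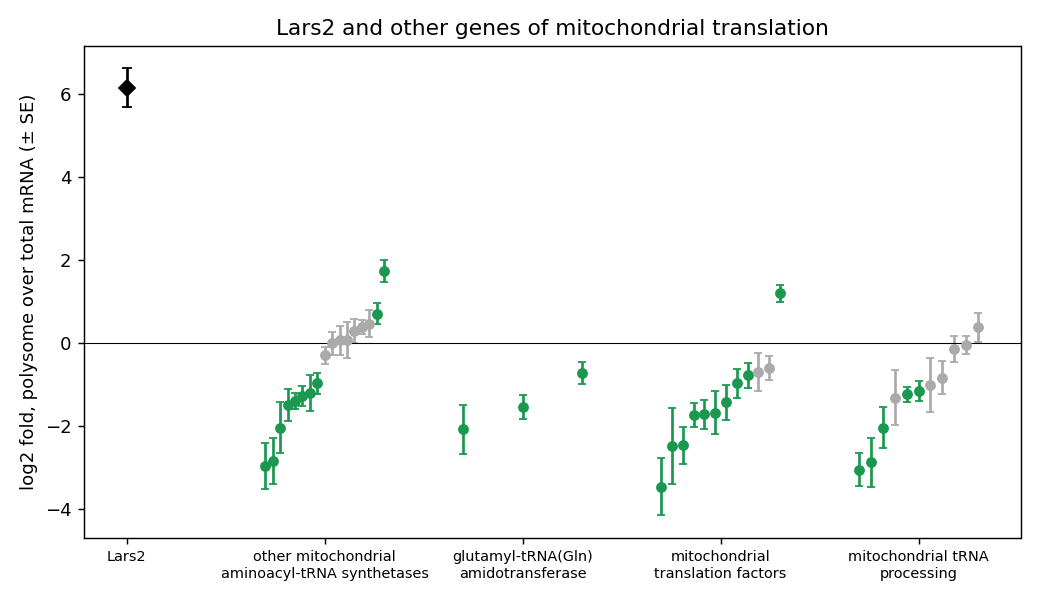
Log2 fold in polysome over total mRNA, with its SE, for Lars2 (black, 6.14) and the measured genes of 4 lists of mitochondrial translation (green, adjusted p below 0.05; grey, not called; n = 13 tumours). Of the 17 other synthetases 2 are green above 0 and 8 green below 0, and the highest, Vars2, stands at 1.73.

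The measured genes beside Lars2 on chromosome 9 did not share its level. Limd1, 16040 bases above, had 62.4 ± 19.1 CPM in polysome mRNA and 52.9 ± 13.7 CPM in total mRNA, a log2 fold of 0.22 ± 0.18 that was not called (edgeR adjusted p = 0.305). Sacm1l, the phosphoinositide phosphatase gene beyond it, had 9.91 ± 4.14 CPM in polysome mRNA and 42.5 ± 22.4 CPM in total mRNA (SD, n = 13), and fell by 1.92 on the log2 scale. Tmem158 and Cdcp1, below Lars2, averaged under 1 CPM in both kinds of library and were not called.

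The genes whose pattern was most like that of Lars2 differed between the kinds of library. Likeness was Pearson's r of log2 CPM with Lars2 among 8052 genes that averaged 10 CPM or more, and libraries share their experimental batch and tumour with others, so the values describe these libraries. In polysome mRNA (n = 13) the highest were Klf13, a Krüppel-like transcription factor, at 0.92, Fosb, an immediate early transcription factor, at 0.91, Dnajc13 at 0.91, Rprd2 at 0.90 and Gm1966 at 0.90, where the median gene had -0.03. Klf13 had 76.1, 65.8 and 90.8 CPM in the polysome libraries of large replicates 3 to 5, against 196, 103 and 149 CPM in small replicates 6 to 8. In batch 1 it had 237 and 131 CPM in large replicates 1 and 2, against 319, 243, 238, 278 and 158 CPM in small replicates 1 to 5. As with Lars2, small replicates 1 to 4 of batch 1 were highest and the large tumours of batch 2 low. Small replicate 5 of batch 1 was lower than those 4, at 158 CPM of Klf13 and 10.3% of polysome counts for Lars2. Klf13 was picked for this likeness, so the match is no separate result. These 5 correlations were 0.92 to 0.95 over the 10 polysome libraries without large replicate 3 and small replicates 6 and 7, and 1 of the 5 genes stayed among the top 5 there.

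In total mRNA (n = 13) the highest were Ipo5, an importin of nuclear transport, Eef1b2, a subunit of elongation factor 1, the ribosomal protein genes Rps10 and Rpl7a, and Wdr36, a factor of ribosome assembly, all with r of 0.97. They were the top of a broad set: 231 genes had r over 0.9 in total mRNA, against 4 in polysome mRNA. Those values rest on the same 3 libraries: over the other 10 the 5 genes had r of 0.81 to 0.87, and 0 of them stayed among the top 5. Rps10 had 26.2, 175 and 339 CPM in large replicates 3 to 5, against 29.7, 28.4 and 273 CPM in small replicates 6 to 8, and 253 to 499 CPM in batch 1. Having been picked by r over these libraries, Rps10 was low where Lars2 was low, in large replicate 3 and small replicates 6 and 7. Ribosomal protein genes have many processed copies in the genome, so their counts are uncertain in the same way. Over deviations from the mean of each RNA source and batch (n = 26) the highest were Eef1a1 at 0.89, Usp38 at 0.86, Cramp1l at 0.86, Epb41l2 at 0.85 and Ctnnd1 at 0.85. Eef1a1, the gene of elongation factor 1 alpha, had 551 CPM in large replicate 3 and 575 and 586 CPM in small replicates 6 and 7, against 2269 to 5806 CPM in the other 10 total mRNA libraries. For the polysome-minus-total difference (n = 13) they were Vim, the vimentin gene, at 0.95, Isy1 at 0.95, Epb41 at 0.94, Chp1 at 0.94 and Epb41l2 at 0.93. Without the 3 tumours, r lay between 0.37 and 0.67 for the first of these sets and between 0.11 and 0.71 for the second.

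**Figure D5:**
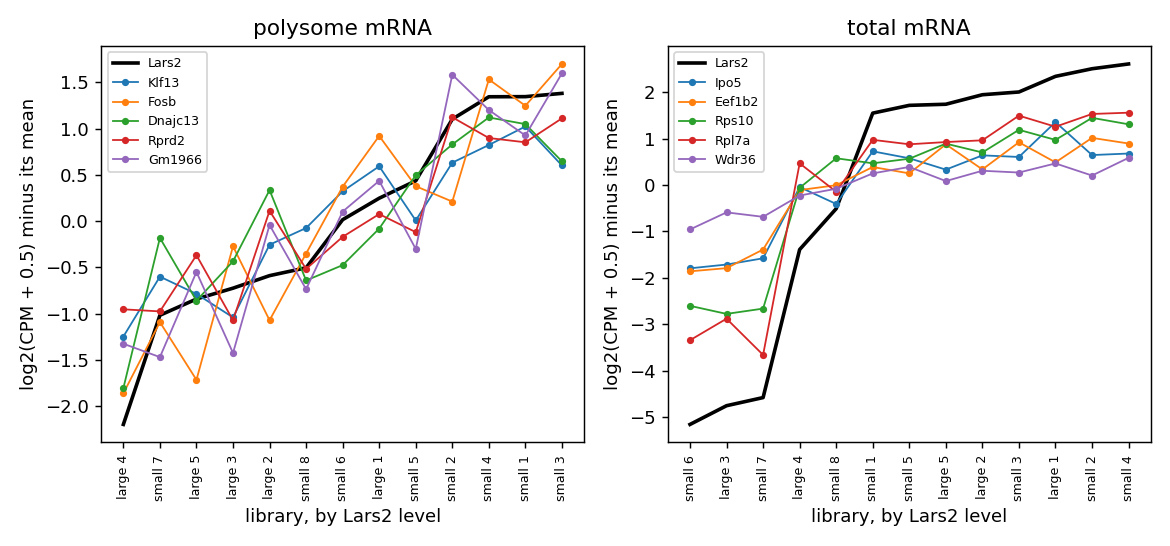
Log2(CPM + 0.5) minus its mean over 13 libraries, for Lars2 (black) and the 5 genes most correlated with it, in polysome mRNA (left) and total mRNA (right), with libraries ordered by their Lars2 level. In total mRNA Lars2 and its 5 like genes are lowest in small replicate 6, large replicate 3 and small replicate 7; in polysome mRNA the lowest library for Lars2 is large replicate 4.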

How the data were processed

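The deposited files hold whole-number counts per gene, made by the authors for each library, and a log2 column. Per the submitters' processing notes, reads were processed with HISAT2 and limma on mm10, with no version given; the read counter, strand setting and treatment of multiply placed reads are not named there. The deposited log2 values equal log2 CPM minus a constant per library (largest deviation 5.1e-14) and were not used further. Of 19549 rows, 830 carry joined gene names and were kept. Lars2, the gene lists and the comparisons were chosen with earlier results of these data known.

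Counts were scaled by TMM, filtered with filterByExpr and fitted in edgeR 4.0.16 (robust quasi-likelihood test, Benjamini-Hochberg adjustment over all genes tested) in R 4.3.3, with batch as a covariate in the size comparisons and the tumour as replicate block in the fit of all 26 libraries. The block comes from the sample titles: both libraries of a tumour deviate from their group means with a median correlation of 0.34 (lowest -0.01), against -0.01 between tumours. DESeq2 1.42.0 and limma 3.58.1 were alternatives. Shares were computed in Python 3.11.15 and compared as means of log2 shares within batches; a planned permutation test of the shares by size is not reported, because the choice of Lars2 reads those shares. The fits were also run on simulated counts that held no tumour or batch effect. That check does not show how the fits perform at the spread between tumours measured here. Counting intervals are Wilson intervals at 95%. Named genes were Lars2; genes above it in a library where at most 3 were; the 3 genes of highest mean share in each RNA source; the 5 most like genes by each measure; the cytosolic Lars; 2 measured neighbours on each side; and up to 4 genes of each mitochondrial list with the lowest p; Wars2, Tars2 and the markers were named after their values were seen. Groups rest on 7034173 to 55609113 counts per library.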

Additional observations from a re-analysis of the deposited data

Results flagged for a closer look

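In total mRNA of batch 2, large replicate 5 had a Lars2 share of 0.571%, set apart from the other 5 libraries, which held 0.00304% to 0.0792%. This holds for the share in percent. On the log2 CPM scale it had 12.1, against 8.97 in large replicate 4 and 9.85 in small replicate 8. Large replicate 3 and small replicates 6 and 7 had 5.61, 5.21 and 5.79 there. Among the large tumours, the polysome-minus-total difference of large replicate 3 was 10.2 on the log2 scale, against 3.59 to 5.36 in the other 4. The 14 groups of samples examined for such a library include overlapping ones, and chance sets a library apart in about 1 of 20 groups.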

How the results depend on the processing

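No alternative called Lars2 between large and small tumours in a gene-wide fit: over the alternatives the log2 fold in polysome mRNA ran from -1.35 to -0.53 (lowest adjusted p 0.0822, DESeq2), and the association from -3.27 to -1.34 (lowest adjusted p 0.205). In total mRNA the size difference turned to -0.19 with no batch term and -0.014 in batch 1 alone, and ran from -0.18 to 2.48 when tumours were left out in turn, negative without large replicate 5; its difference between batches ran from -0.45 to 5.17 likewise. The total mRNA share difference turned to -0.048 with no batch strata and -0.0096 in batch 1 alone. The polysome share difference was -0.91 in batch 2 alone, -1.33 in batch 1 alone and -1.24 to -0.75 with each tumour left out in turn. Polysome over total mRNA stayed between 4.88 and 7.64; with no replicate block it was 5.37, and the association was -2.24. Within batch 2, pairing tumours by their label number as replicate block gave -0.76 in polysome mRNA and 1.95 in total mRNA; the block changed no call. The synthetases called higher numbered 0 in batch 2 alone, where 1690 of all 12081 genes were. In batch 1 alone they numbered 4, where 2897 of 12603 genes were called higher. Without large replicate 3 and small replicates 6 and 7 they numbered 4, where 2988 of 11992 genes were. With a tumour left out they numbered 1 to 4: 1 without small replicate 3 or 4, and 4 without small replicate 7. Of all genes, 2691 of 12016, 2676 of 11959 and 2936 of 11894 were called higher in those fits. Synthetases called lower numbered 4 in batch 2 alone, where 1916 of 12081 genes were. With a mean of at least 10 CPM, which left 12 to test, 4 were lower, against 3002 of 8053 genes. The other mitochondrial lists had fewer calls in batch 2 alone: 4 translation factor genes lower and 0 higher, 2 tRNA processing genes lower, and 1 amidotransferase gene lower. Calls over all genes were fewer there too: 3606 of 12081 in either direction, against 7088 of 12109 in the fit of all 26 libraries. The cause was not tested. Leaving ribosomal RNA rows out of the shares was not run, as the tables have 0 such rows.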
